A study of Homo sapiens with 6 samples.

Results

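The proteasome is the large protease that degrades proteins marked with ubiquitin. Its 20S core is a barrel of alpha rings (PSMA genes), which gate the entrance, and beta rings (PSMB genes), which hold the catalytic sites. The 19S cap sits on the barrel and is built of ATPases (PSMC genes), which unfold substrates, and non-ATPase subunits (PSMD genes), which bind and trim ubiquitin. In cells exposed to interferon, the catalytic subunits PSMB5, PSMB6 and PSMB7 can be replaced by PSMB8, PSMB9 and PSMB10, and the particle so formed, the immunoproteasome, is known for producing peptides for MHC class I.

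Proteasome genes were taken by name, as every gene whose symbol starts with PSMA to PSMG and ends in a number, which gave 48 of the 58735 genes in the table. They were measured by RNA-seq in PANC-1, an established human pancreatic ductal adenocarcinoma line, in a si-NC group of 3 samples, which received control siRNA, and a si-METTL16 group of 3, in which siRNA was directed at METTL16, an RNA methyltransferase. The methods call the samples biological triplicates and the transfection stable, while a label of the control samples calls them WT. The siRNA used for sequencing, out of several designed, and the time after transfection were not given in the sources used here, and all samples come from 1 cell line. The split by role gave 7 alpha subunits, 3 constitutive catalytic beta subunits, 4 other beta subunits, 6 ATPases, 11 non-ATPase subunits, 3 assembly chaperones of the 19S cap, 4 assembly chaperones of the 20S core, 3 immunoproteasome subunits, 4 activators, 1 inhibitor and 2 tissue-restricted subunits.

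Library totals lay between 15725298 and 18054436 counts. METTL16 had 1546, 1641 and 1764 counts in the si-NC samples and 571, 528 and 627 in the si-METTL16 samples, and fell by 1.48 ± 0.07 (SE) on the log2 scale (edgeR's quasi-likelihood test, Benjamini-Hochberg adjusted p = 8.34e-05). The ductal markers KRT7, KRT8, KRT18, KRT19 and SOX9 were all detected and summed to between 349 and 452 FPKM in si-NC and between 357 and 398 FPKM in si-METTL16, with KRT19, KRT7 and SOX9 lower after silencing. Of the 6 leukocyte markers, which would mark cells that carry the immunoproteasome at all times, CD3E was at 0 in every sample, PTPRC did not exceed 0.0237 FPKM, and the sum of the list was between 1.98 and 2.18 FPKM in si-NC and between 2.09 and 2.55 FPKM in si-METTL16. Among them CD14 fell and CD68 rose, both below 2 FPKM in every sample. The part of these markers in the results on proteasome genes was not tested.

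PSMA8, the alpha subunit of the testis, and PSMB11, the catalytic subunit of the thymus, did not pass the filter on low counts. PSMA8 had 1 count in si-METTL16 replicate 2 and 0 in the other samples, and PSMB11 had 0 in all 6. A count of 0 allows up to 3 counts here, or from 0.167 to 0.192 CPM depending on the library (CPM are counts brought to a common library total), for counting error only. The other 46 genes were tested, and all of them had counts in every sample, the fewest being the 85 counts of PSMB10 in si-METTL16 replicate 2.

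Promoters are shown for the interferon-linked members, since the genes that fell most were among them and since the stretches shown differ in the elements they hold. RefSeq windows (GRCh38.p14) from 250 bases before to 50 bases after an annotated start were found for 42 of the 48 genes. The capitals mark matches, on either strand, to the interferon-stimulated element (GAAA, any 2 bases, GAAA), to the gamma interferon activation element TTCNNNGAA and to TGACNNNGC, the core of the antioxidant response element that NFE2L1 and its relatives bind.
PSMB9, chr6:32853942-32854241, plus strand: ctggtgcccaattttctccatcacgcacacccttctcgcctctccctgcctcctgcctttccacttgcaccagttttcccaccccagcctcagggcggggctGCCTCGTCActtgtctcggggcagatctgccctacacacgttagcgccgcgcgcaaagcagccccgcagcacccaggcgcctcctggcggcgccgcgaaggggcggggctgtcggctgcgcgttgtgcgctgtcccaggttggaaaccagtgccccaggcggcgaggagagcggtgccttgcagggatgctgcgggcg
PSMB8, chr6:32843998-32844297, minus strand: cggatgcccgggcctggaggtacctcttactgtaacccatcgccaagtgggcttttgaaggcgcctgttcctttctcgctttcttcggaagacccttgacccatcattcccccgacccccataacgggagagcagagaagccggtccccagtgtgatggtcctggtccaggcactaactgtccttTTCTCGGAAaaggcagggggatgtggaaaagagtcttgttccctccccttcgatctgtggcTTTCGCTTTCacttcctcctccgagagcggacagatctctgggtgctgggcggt
PSMB10, chr16:67936801-67937100, minus strand: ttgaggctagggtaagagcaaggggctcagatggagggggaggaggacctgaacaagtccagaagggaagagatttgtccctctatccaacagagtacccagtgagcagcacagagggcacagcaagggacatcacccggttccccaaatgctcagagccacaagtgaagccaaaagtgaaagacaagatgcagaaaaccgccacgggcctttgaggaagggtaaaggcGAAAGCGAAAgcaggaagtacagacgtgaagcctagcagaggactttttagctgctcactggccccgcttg
PSME1, chr14:24135944-24136243, plus strand: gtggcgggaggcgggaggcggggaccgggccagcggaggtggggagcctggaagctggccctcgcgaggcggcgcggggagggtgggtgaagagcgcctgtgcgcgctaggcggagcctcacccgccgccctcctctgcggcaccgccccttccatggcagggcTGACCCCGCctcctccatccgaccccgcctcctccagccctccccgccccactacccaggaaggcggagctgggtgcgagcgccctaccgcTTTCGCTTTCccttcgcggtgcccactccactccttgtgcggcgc
PSME2, chr14:24146561-24146860, minus strand: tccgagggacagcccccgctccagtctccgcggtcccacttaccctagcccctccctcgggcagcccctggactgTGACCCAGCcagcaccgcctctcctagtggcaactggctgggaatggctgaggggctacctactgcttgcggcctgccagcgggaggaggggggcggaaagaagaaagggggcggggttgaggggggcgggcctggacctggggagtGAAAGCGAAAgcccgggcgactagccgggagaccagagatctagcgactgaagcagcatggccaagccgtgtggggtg

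The interferon-stimulated element was found in 7 of 51 windows of proteasome genes (13.7%), against 3.57% of 35116 windows of all genes. The genes that held it were PSMB8, PSMB10, PSME1, PSME2, PSMA4, PSMB4 and PSMG4. PSMB9 was the immunoproteasome gene whose window lacked it. A window of TAP1 (32853655 to 32853954), the peptide transporter gene that starts beside PSMB9 on the other strand, did hold it. The PSMB9 window begins at 32853942, inside the end of that TAP1 window. The element in the TAP1 window lies between the starts of both genes, outside the PSMB9 window. The lack in PSMB9 thus applies to the window with 250 bases before its start, not to the whole stretch between the starts. The gamma interferon activation element was in 15.7% of member windows and 7.66% of all windows, and among the 5 windows shown only that of PSMB8 had it. TGACNNNGC was in 29.4% of member windows against 13.3% of all windows, and was present in those of PSMB9, PSME1 and PSME2. The CCAAT box, in 39.2% and 34.6% of windows, is left in lower case. PSMB8 has another annotated start whose window holds none of the 3 elements in capitals.

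The question put to the table was which parts of the proteasome changed in mRNA level when METTL16 was silenced. Of the 46 genes, 6 fell (PSMB9, PSME1, PSMA7, PSMC2, PSMD1 and PSMA5) and 3 rose (PSMD8, PSMD5 and PSMD12). The 9 called genes were 19.6% of those tested, while 35.9% of the 15089 genes tested in all were called. By role, the called share was 28.6% for the alpha subunits, 16.7% for the ATPases, 27.3% for the non-ATPase subunits and 25% for the activators. It was 33.3% for the 19S chaperones and the immunoproteasome. No gene was called among the constitutive catalytic and other beta subunits, the 20S chaperones and the inhibitor. Lower calls made up 13.0% of the proteasome genes and 17.5% of all genes, and higher calls 6.52% and 18.4%. When calls were also held to a log2 change of 0.5 or more in either direction, the 3 genes PSMB9, PSME1 and PSMA7 remained, or 6.52%, against 22.8% of all genes. The CPM of the 2 groups did not overlap for 19 proteasome genes (41.3%), against 50.9% of all genes. The median log2 fold change was -0.01 over the proteasome genes and 0.00 over all genes, and the median absolute log2 fold change was 0.17 and 0.33. In RNA from whole cultures, fewer cells of a type and less RNA per cell cannot be told apart.

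**Figure D1:**
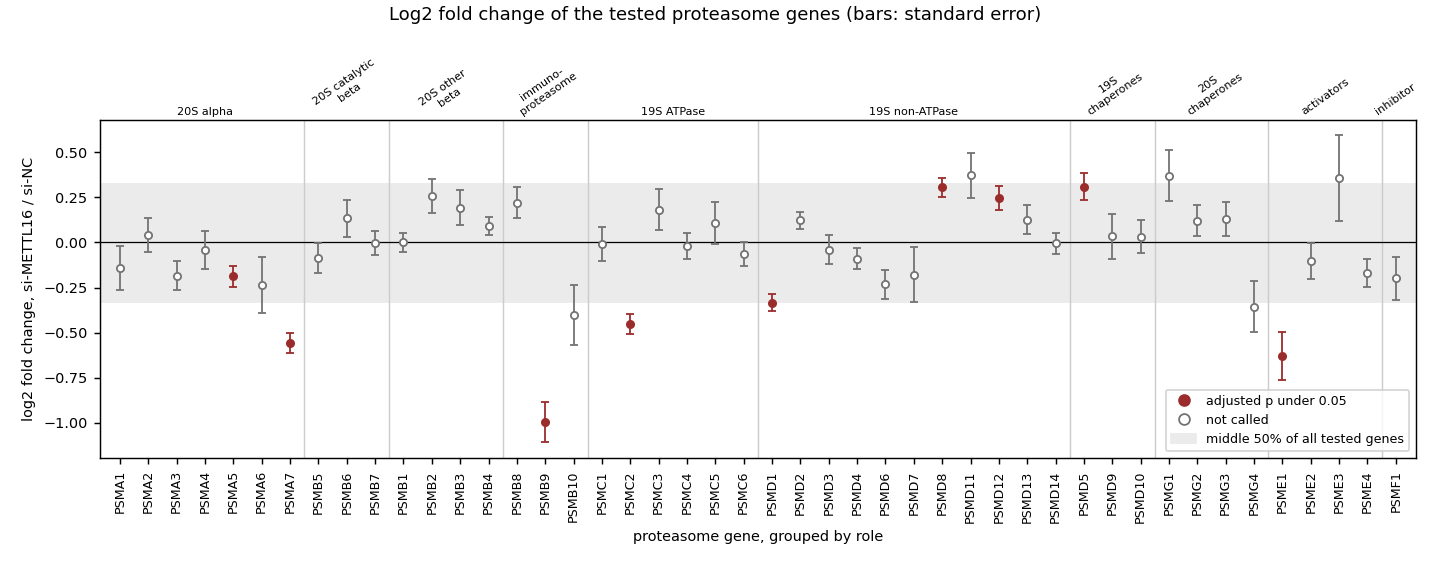
Log2 fold change of si-METTL16 over si-NC (y axis) for each of the 46 tested proteasome genes, grouped by role (x axis), with standard errors as bars; filled points passed the adjusted p of 0.05 and the band holds the middle 50% of all 15089 tested genes, from -0.33 to 0.32. PSMB9, PSME1, PSMA7 and PSMC2 lie below the band among the called genes, and PSMD1 lies just below its lower edge.

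The plot of fold changes by role shows most points inside the band that holds the middle 50% of all tested genes. PSMD1, at -0.33, stands just below its lower edge, and the called genes above 0 stay inside it.

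The summed level of the 48 genes was 6834, 6991 and 7139.6 CPM in the si-NC samples and 6977, 7107 and 6749.6 CPM in the si-METTL16 samples. The sums overlapped between groups, and the mean after silencing was 99.4% of control. By role, the summed CPM was 88.2% of control for the alpha subunits, 101% for the constitutive catalytic subunits, 107% for the other beta subunits, 98.1% for the ATPases, 103% for the non-ATPase subunits, 112% for the 19S chaperones, 113% for the 20S chaperones, 88.8% for the immunoproteasome and 94.4% for the activators. On average PSMC4 held 1673 of the 2134 CPM of the ATPases in si-NC. Without it, left out after its level was seen, their sum was 96.4% of control. No p was computed for these sums.

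Of the 3 immunoproteasome subunits, PSMB9 alone passed the test. PSMB9 (ENSG00000240065, chromosome 6 from 32844136 to 32859585), which takes the caspase-like site of PSMB6, had 11.6, 12.1 and 12.1 CPM in si-NC and 6.16, 5.96 and 5.84 CPM in si-METTL16. Every silenced sample lay far below every control, and the samples within a group were close to each other. PSMB9 fell by 1.00 ± 0.11 (SE) on the log2 scale, to 50.1% of control (edgeR's quasi-likelihood test, adjusted p = 0.000735), the lowest log2 fold change among the 46 genes. The depth behind it was 196, 206 and 212 counts in si-NC and 101, 93 and 105 in si-METTL16. The deposited span of PSMB9 starts before the promoter window shown above (chr6:32853942-32854241) and encloses TAP1 (32845209 to 32853978).

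PSMB8, which replaces PSMB5 at the chymotrypsin-like site, had 21.4, 20.3 and 19.9 CPM in si-NC and 22.7, 24.5 and 24.5 CPM in si-METTL16. Its groups did not overlap, with the silenced samples the higher, but its log2 fold change of 0.22 ± 0.09 (SE) did not pass the test (edgeR, adjusted p = 0.0868). PSMB10, which replaces PSMB7 at the trypsin-like site, had 7.22, 9.43 and 7.24 CPM in si-NC and 6.64, 5.45 and 5.95 CPM in si-METTL16. Here the silenced samples were the lower without overlap, and the log2 fold change of -0.40 ± 0.17 (SE) did not pass either (edgeR, adjusted p = 0.0979). It was -0.27 without si-NC replicate 2, the highest control. PSMB8 and PSMB9 are neighbours on opposite strands, and 139 exon bases, 4.16% of those of PSMB9, are shared. For PSMB10, 39.4% of exon bases lie in a readthrough gene on the same strand. The use of strand in counting was not given in the sources used here, so reads from such overlaps are uncertain.

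The constitutive catalytic subunits gave no call. PSMB5 had 103, 90.7 and 104 CPM in si-NC and 97.2, 86.8 and 97.5 CPM in si-METTL16. PSMB6 had 86.8, 98.1 and 94.1 CPM in si-NC and 96.1, 93.2 and 117 CPM in si-METTL16. PSMB7 had 123, 120.3 and 124 CPM in si-NC and 114, 127 and 127 CPM in si-METTL16. The groups overlapped for all 3 genes. Their log2 fold changes were -0.09 ± 0.08, 0.13 ± 0.10 and 0.00 ± 0.07 (SE).

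Within each sample, the inducible subunit was set against the constitutive subunit whose place it takes, per length, as a ratio of FPKM. PSMB9/PSMB6 was 0.0827, 0.0766 and 0.0795 in si-NC and 0.0396, 0.0396 and 0.0310 in si-METTL16. PSMB8/PSMB5 was 0.146, 0.158 and 0.134 in si-NC and 0.165, 0.199 and 0.178 in si-METTL16. The ratio for PSMB9 was lower and that for PSMB8 higher in every silenced sample, with no overlap for either. Each had p = 0.1 in a two-sided exact permutation test, the smallest p that 3 against 3 samples allow, and 0.15 after adjustment over the 3 ratios. PSMB10/PSMB7 overlapped between groups, with means of 0.0482 ± 0.0085 (SD, n = 3) and 0.0367 ± 0.0060 (SD, n = 3) and an exact permutation p of 0.2 (adjusted 0.2). In both groups the inducible subunits were thus a small part of the catalytic mRNA, below 0.2 of their constitutive counterparts.

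**Figure D2:**
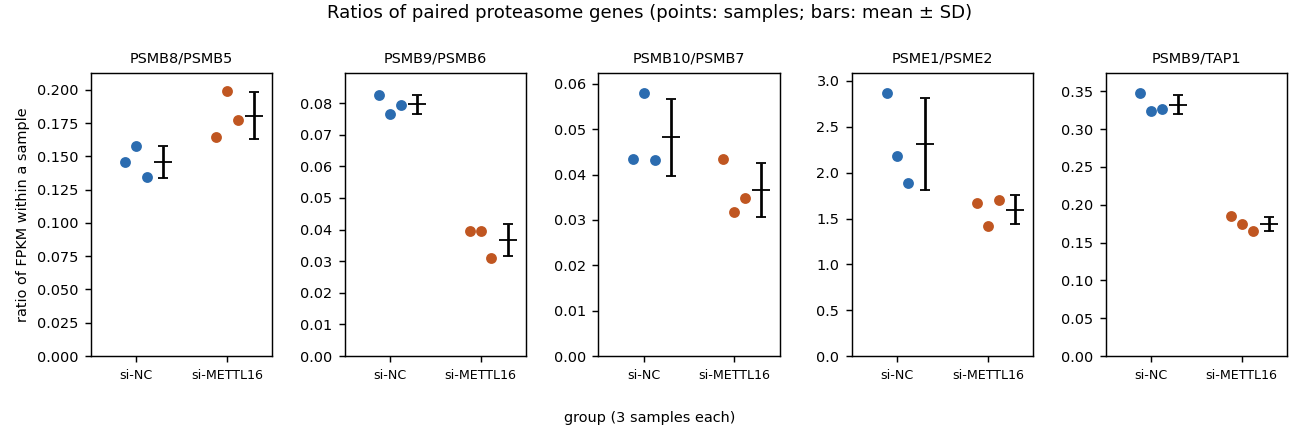
Ratio of the FPKM of paired genes within each sample (y axis, from 0) in the 3 si-NC and 3 si-METTL16 samples (x axis), with the mean and SD as bars. PSMB9/PSMB6 and PSMB9/TAP1 are lower in all silenced samples, PSMB8/PSMB5 is higher in all of them, and PSMB10/PSMB7 overlaps between the groups.

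The plot of paired ratios also shows 2 ratios that were chosen after their values were seen and carry no test. PSMB9/TAP1, of neighbours that start on opposite strands, was 0.332 ± 0.013 (SD, n = 3) in the controls and 0.175 ± 0.010 (SD, n = 3) after silencing. PSMB9/PSMB8, not drawn there, was 0.700 ± 0.042 (SD, n = 3) and 0.301 ± 0.022 (SD, n = 3).

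Of the activators, which open the core without ATP, PSME1 fell. PSME1 (ENSG00000092010, chromosome 14 from 24136158 to 24138967), which forms a ring with PSME2 and is induced by interferon gamma, had 64.7, 54.8 and 47.9 CPM in si-NC and 40.6, 34.0 and 33.8 CPM in si-METTL16. The silenced samples were all lower, although the controls were spread widely. The log2 fold change was -0.63 ± 0.13 (SE), to 64.7% of control (edgeR's quasi-likelihood test, adjusted p = 0.00982), and -0.51 without si-NC replicate 1, which had the highest level. PSME2, its partner, which lies 4395 bases away, had 60.5, 67.3 and 68.2 CPM in si-NC and 65.0, 64.4 and 53.2 CPM in si-METTL16. The groups overlapped, with a log2 fold change of -0.10 ± 0.10 (SE). PSME1/PSME2, a ratio of FPKM chosen after its values were seen, went from 2.31 ± 0.50 (SD, n = 3) to 1.60 ± 0.16 (SD, n = 3). Both promoters carry the interferon-stimulated element in capitals above.

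PSME3, the activator of the nucleus, had 60.4, 105 and 126 CPM in si-NC and 122, 123 and 129 CPM in si-METTL16. In si-NC replicate 1 it was low, and its log2 fold change was 0.36 ± 0.24 (SE) with all samples and 0.10 without that replicate. PSME4, the large single-chain activator, had 286, 265 and 281 CPM in si-NC and 229, 274 and 237 CPM in si-METTL16. Its groups overlapped through si-METTL16 replicate 2, and its log2 fold change was -0.17 ± 0.08 (SE). Without that replicate it was -0.26 and passed the test (edgeR, adjusted p = 0.0279). PSMF1, an inhibitor of the core in isolated form, had 78.0, 81.2 and 69.6 CPM in si-NC and 69.4, 74.4 and 55.5 CPM in si-METTL16, with overlap and a log2 fold change of -0.20 ± 0.12 (SE), which was -0.085 without si-METTL16 replicate 3, the lowest sample.

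**Figure D3:**
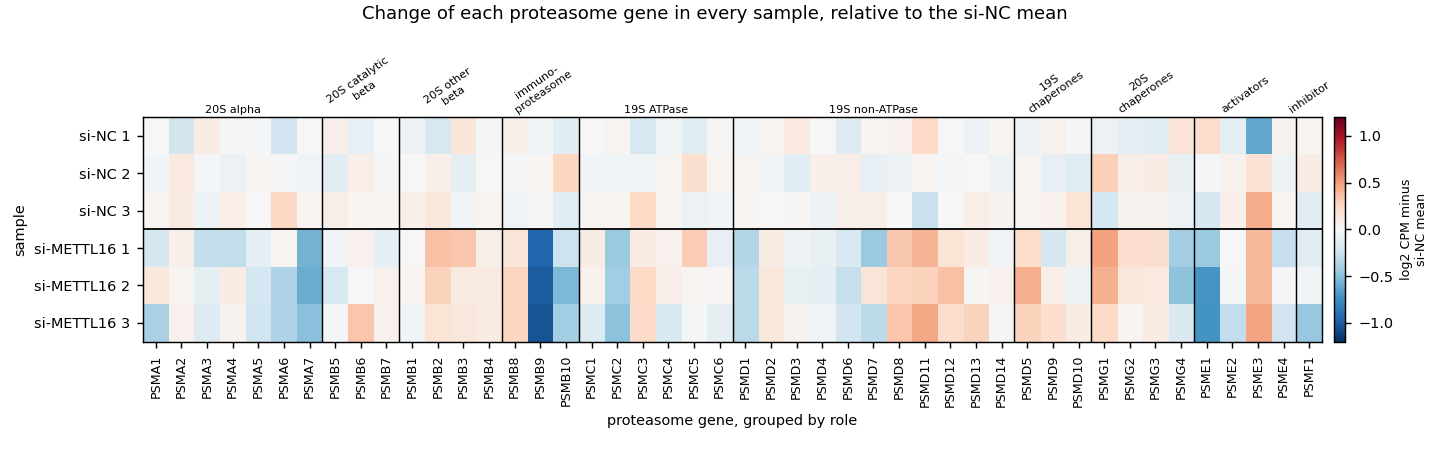
Log2 CPM minus the si-NC mean (colour) of each tested proteasome gene (x axis, grouped by role) in the 6 samples (y axis); blue is lower and red is higher. The columns of PSMB9, PSMA7, PSMC2 and PSME1 are blue in all 3 si-METTL16 samples, and PSME3 in si-NC replicate 1 is the deepest blue among the control samples.

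In the map of samples by gene, the called genes moved alike in the 3 silenced samples, and PSME3 and PSMD11 varied among the controls. This follows in part from the calls, since the test weighs a difference against the spread within groups.

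In the alpha ring, 2 of 7 genes fell and none rose, a called share of 28.6% against 35.9% of all genes. PSMA7 (ENSG00000101182, chromosome 20 from 62136735 to 62143440) had 192, 187 and 196 CPM in si-NC and 129, 127 and 135 CPM in si-METTL16. The groups were far apart compared with the spread inside each. PSMA7 fell by 0.56 ± 0.05 (SE) on the log2 scale, to 68.0% of control (edgeR's quasi-likelihood test, adjusted p = 0.000459). PSMA5 had 111, 114 and 112 CPM in si-NC and 104, 97.3 and 94.9 CPM in si-METTL16, without overlap. Its fall of 0.19 on the log2 scale passed narrowly (edgeR, adjusted p = 0.0463) and was called in 6 of 14 alternative fits. Leaving out si-NC replicate 1, 2 or 3 or si-METTL16 replicate 2 or 3 gave adjusted p between 0.0777 and 0.122 (edgeR). The other 5 alpha genes had log2 fold changes between -0.24 for PSMA6 and 0.04 for PSMA2. Only 1 of the 7, PSMA2, was above 0, and the median of the ring was -0.18. PSMA1, at -0.14 with all samples, was at -0.30 and called without si-METTL16 replicate 2 (edgeR, adjusted p = 0.0339).

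None of the 4 other beta subunits was called. PSMB2 had the highest log2 fold change of them, with 122, 145 and 153 CPM in si-NC and 177, 169 and 156 CPM in si-METTL16. The silenced samples were higher without overlap, but the difference of 0.26 ± 0.10 (SE) missed the threshold (edgeR, adjusted p = 0.0737). PSMB1 had the lowest, with 282, 294 and 305 CPM in si-NC and 295, 299 and 287 CPM in si-METTL16, which overlapped fully. Its difference was 0.00 ± 0.05 (SE). PSMB3 and PSMB4 lay between, at 0.19 and 0.09.

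Among the 6 ATPases, PSMC2 (ENSG00000161057, chromosome 7 from 103344254 to 103369395) fell and the other 5 were not called. PSMC2 had 144, 136 and 144 CPM in si-NC and 104, 106 and 100.3 CPM in si-METTL16, with a wide gap between the groups. The fall was 0.45 ± 0.06 (SE) on the log2 scale, to 73.1% of control (edgeR's quasi-likelihood test, adjusted p = 0.0012). At the other end, PSMC3 had 107, 118 and 145 CPM in si-NC and 131, 145 and 144 CPM in si-METTL16. Its groups overlapped through si-NC replicate 3, and the log2 fold change of 0.18 ± 0.11 (SE) became 0.31 and was called (edgeR, adjusted p = 0.0388) without that replicate. PSMC4, PSMC5, PSMC6 and PSMC1 had log2 fold changes between -0.06 and 0.11.

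Of the 11 non-ATPase subunits, 1 fell and 2 rose, a called share of 27.3% against the same 35.9%. PSMD1 (ENSG00000173692, chromosome 2 from 231056864 to 231172827), a large scaffold of the cap, had 276, 291 and 289 CPM in si-NC and 223, 229 and 228 CPM in si-METTL16. The groups did not overlap, and PSMD1 fell by 0.33 ± 0.05 (SE) on the log2 scale (edgeR's quasi-likelihood test, adjusted p = 0.00235). PSMD2, the other large scaffold, was not called and had a log2 fold change of 0.12 ± 0.05 (SE).

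PSMD8, a subunit of the lid of the cap, had 238, 219.9 and 230.2 CPM in si-NC and 288, 275 and 288 CPM in si-METTL16. All silenced samples were higher, and the rise was 0.31 ± 0.05 (SE) on the log2 scale (edgeR's quasi-likelihood test, adjusted p = 0.00502). PSMD12, also of the lid, rose by 0.25 ± 0.07 (SE) on the log2 scale (edgeR, adjusted p = 0.0243), with 114, 112 and 113 CPM in si-NC and 127, 145 and 131 CPM in si-METTL16. That call was lost without si-NC replicate 1, 2 or 3 or si-METTL16 replicate 2, with adjusted p between 0.0590 and 0.0691 (edgeR). PSMD11, a lid subunit with the highest log2 fold change of all 46 genes, had 126, 110.5 and 89.6 CPM in si-NC and 143, 130.2 and 149 CPM in si-METTL16. The controls were spread widely below the silenced samples, and 0.37 ± 0.13 (SE) just missed the threshold (edgeR, adjusted p = 0.0542). Without si-NC replicate 1, the highest control, it was 0.49 and passed (edgeR, adjusted p = 0.0228). PSMD14, the deubiquitinase of the lid, and PSMD4, a ubiquitin receptor, were not called, at 0.00 and -0.09, and PSMD3, PSMD6, PSMD7 and PSMD13 lay between -0.23 and 0.13. Of these, PSMD6 was at -0.31 and called without si-NC replicate 1 (edgeR, adjusted p = 0.0165), and PSMD7 at -0.38 and called without si-METTL16 replicate 2 (edgeR, adjusted p = 0.0222).

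Of the chaperones that assemble the 19S cap, PSMD5 rose by 0.31 ± 0.08 (SE) on the log2 scale (edgeR's quasi-likelihood test, adjusted p = 0.0179). It had 85.8, 91.9 and 91.3 CPM in si-NC and 104, 121 and 108 CPM in si-METTL16, without overlap. Without si-NC replicate 1 the adjusted p of edgeR was 0.0574. PSMD10, also known as gankyrin, had 93.6, 86.2 and 107 CPM in si-NC and 100.2, 91.5 and 101 CPM in si-METTL16, with overlap and a log2 fold change of 0.03 ± 0.09 (SE). PSMD9 was at 0.03 as well.

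The chaperones of the 20S core work in pairs, PSMG1 with PSMG2 and PSMG3 with PSMG4, and none was called. PSMG1 had 36.5, 46.8 and 33.1 CPM in si-NC and 53.6, 51.7 and 45.1 CPM in si-METTL16, and si-NC replicate 2 reached into the range of the silenced samples. Its log2 fold change of 0.37 ± 0.14 (SE) missed the threshold (edgeR, adjusted p = 0.0813) and passed it without that replicate (edgeR, adjusted p = 0.0173). PSMG2 had 41.4, 46.9 and 46.1 CPM in si-NC and 51.6, 49.1 and 45.6 CPM in si-METTL16, with overlap and a log2 fold change of 0.12 ± 0.09 (SE).

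PSMG3 had 21.3, 24.9 and 24.1 CPM in si-NC and 26.6, 25.3 and 25.1 CPM in si-METTL16. These did not overlap, but the gap was small and the log2 fold change was 0.13 ± 0.09 (SE). PSMG4, its partner, had 11.4, 9.60 and 9.70 CPM in si-NC and 7.62, 7.31 and 9.01 CPM in si-METTL16. The silenced samples were lower, yet -0.36 ± 0.14 (SE) missed the threshold (edgeR, adjusted p = 0.0891). Exons of PSMG4 share 13.3% of their bases with SLC22A23 on the opposite strand.

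Levels per length were far from equal, although the subunits of the core and cap are needed in equal number. The 31 structural subunits had a median of 21.4 FPKM in si-NC, and 22 of them lay between 10 and 60 FPKM. PSMC4 stood apart at 444 ± 15 FPKM (SD, n = 3), 20.7 times the median subunit, ahead of PSMB1 at 116 ± 4.7 FPKM (SD, n = 3) and PSMA7 at 67.8 ± 1.7 FPKM (SD, n = 3). In si-METTL16 it was at 431 ± 38 FPKM (SD, n = 3). PSMC4 held between 21.8% and 24.8% of the counts of all proteasome genes in a sample. Of the 52 tested genes within 1 Mb of it on chromosome 19, 8 (15.4%) exceeded 39.9 FPKM in si-NC, the level that 5% of all tested genes exceed. Copy number was not analysed here.

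**Figure D4:**
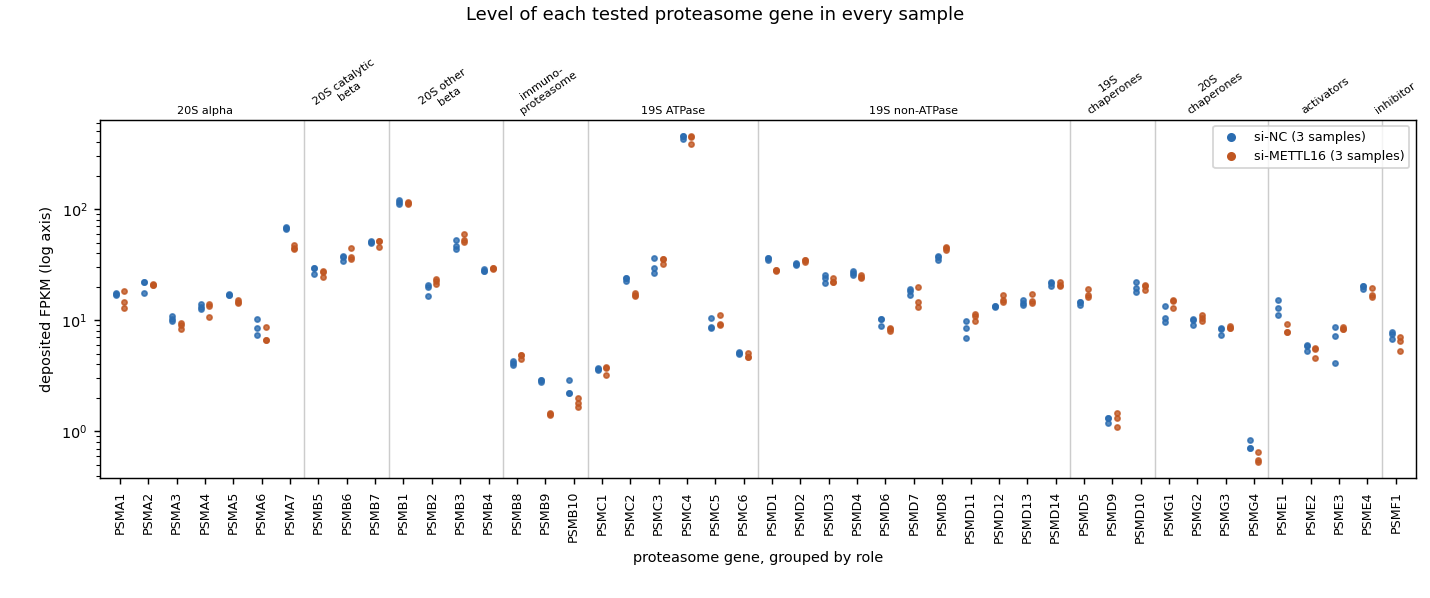
Deposited FPKM (y axis, log scale) of each tested proteasome gene, grouped by role (x axis), with 1 point per sample. PSMC4 lies near 444 FPKM and PSMC1 near 3.63 FPKM in si-NC, and the immunoproteasome genes lie below 5 FPKM in every sample.

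The plot of levels shows a like order of subunits in both groups. No subunit moved by more than 4 places in the order of 31, and 26 stayed within 2 places. PSMB7 and PSMB3, at 50.4 ± 0.9 and 48.1 ± 4.6 FPKM (SD, n = 3) in si-NC, changed order in si-METTL16 and differed by less than their spread, and PSMD8, PSMB6 and PSMD1, between 35.9 and 36.6 FPKM, were not separated in si-NC either. The SD of log2(FPKM + 1) over the 31 subunits was 1.28 in both groups. It was 1.02 and 1.03 without PSMC4, which was left out after its level was seen. For log2 CPM, which is not divided by length, the SD over the 31 subunits lay between 0.979 and 1.013 in the 6 samples. The spread was thus wider per length. The part of the gene lengths used for FPKM in these levels and their order was not tested.

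PSMC1 was the lowest of the 31, at 3.63 ± 0.09 FPKM in si-NC and 3.55 ± 0.31 FPKM in si-METTL16 (SD over 3 samples), and its level is uncertain. The pseudogene PSMC1P1 had between 2203 and 2785 counts per sample, so that PSMC1 held between 15.5% and 18.6% of the counts of the pair. In addition, 76.1% of the exon bases of PSMC1 lie opposite NRDE2. All 32 pseudogenes named after proteasome genes together held between 2.11% and 2.41% of the counts of genes and pseudogenes, and between 0.175% and 0.237% without PSMC1P1.

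Partner genes were described from lists written by role. Of 19 cofactors and assembly factors, 6 rose and 2 fell, with a median log2 fold change of 0.08. Over all genes tested, 18.4% were called higher and 17.5% lower. PITHD1 rose most, from 44.5, 44.4 and 44.3 CPM to 89.6, 84.1 and 79.1 CPM, by 0.92 ± 0.07 (SE) on the log2 scale (edgeR's quasi-likelihood test, adjusted p = 0.000214). The groups were widely apart, and the controls were almost equal. UBE3C, a ubiquitin ligase bound to the proteasome, fell most, from 103, 108 and 105 CPM to 91.8, 87.3 and 85.6 CPM, by 0.26 ± 0.06 (SE) on the log2 scale (edgeR, adjusted p = 0.0143). POMP, which drives maturation of the core, had 127, 126 and 120.1 CPM in si-NC and 136, 133 and 90.8 CPM in si-METTL16, and si-METTL16 replicate 3 stood apart. Its log2 fold change was -0.05 ± 0.15 (SE) and it was not called.

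NFE2L1 is the transcription factor that raises proteasome genes when proteasome activity falls. It had 321, 283 and 258 CPM in si-NC and 321, 338 and 384 CPM in si-METTL16, which touched at their ends, and its log2 fold change of 0.28 ± 0.10 (SE) missed the threshold (edgeR, adjusted p = 0.0695). Of the 11 genes of its pathway, 5 fell and 1 rose, with a median of -0.26, beside 17.5% of all genes called lower and 18.4% higher. The lowest was DDI2, the protease that releases NFE2L1, from 72.7, 80.1 and 76.7 CPM to 42.4, 41.5 and 45.1 CPM, a fall of 0.83 ± 0.07 (SE) on the log2 scale (edgeR's quasi-likelihood test, adjusted p = 0.000318). NGLY1, which removes its sugars, VCP and SEL1L, which act in its extraction from the membrane, and OGT were the other genes that fell. The call of OGT was lost without si-NC replicate 1 or si-METTL16 replicate 2 or 3, with adjusted p up to 0.0843 (edgeR). MAFK, a small MAF protein that pairs with it, rose from 127, 97.2 and 123 CPM to 178, 173 and 193 CPM, by 0.65 ± 0.11 (SE) on the log2 scale (edgeR, adjusted p = 0.00381). Both changes left the groups without overlap.

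Of the 6 genes for ubiquitin and its activating enzymes, UBA6 alone was called, with 108, 103 and 97.7 CPM in si-NC and 131, 134 and 117 CPM in si-METTL16, a rise of 0.31 ± 0.07 (SE) on the log2 scale (edgeR, adjusted p = 0.0161). The call was lost without si-NC replicate 3 or si-METTL16 replicate 2, with adjusted p up to 0.0593 (edgeR). Of the 12 interferon-linked genes of antigen presentation, 3 fell and 1 rose, with a median of -0.07, beside the same 17.5% and 18.4% of all genes. TAPBP, the tapasin gene, fell from 278, 267 and 275 CPM to 144, 146 and 102 CPM, by 1.06 ± 0.13 (SE) on the log2 scale (edgeR's quasi-likelihood test, adjusted p = 0.00112). IRF1, a transcription factor of the interferon response, rose from 13.9, 15.3 and 18.8 CPM to 25.6, 25.6 and 20.7 CPM, by 0.58 ± 0.15 (SE) on the log2 scale (edgeR, adjusted p = 0.0193). Neither pair of groups overlapped, but the call of IRF1 was lost without si-NC replicate 1 or 2 or si-METTL16 replicate 1 or 2, with adjusted p up to 0.0639 (edgeR). ERAP2 fell too, by 0.67 on the log2 scale, while TAP1 had a log2 fold change of -0.07 ± 0.07 (SE) and was not called.

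**Figure D5:**
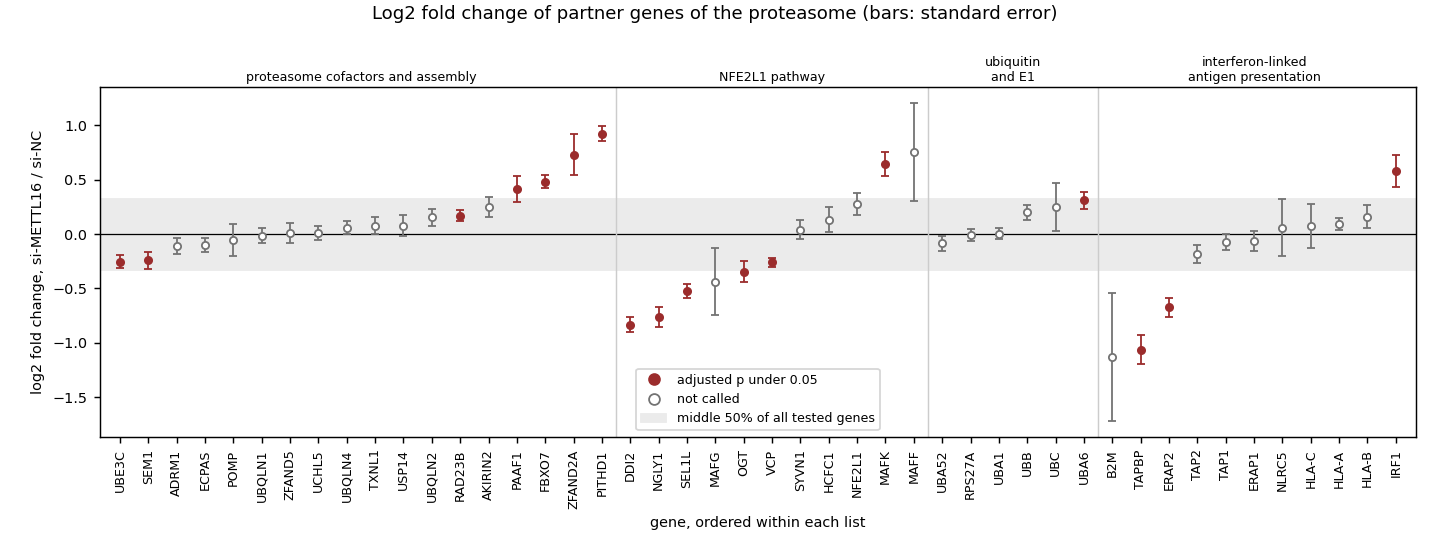
Log2 fold change of si-METTL16 over si-NC (y axis) for 46 of the 48 genes of the 4 partner lists (x axis, ordered within each list), with standard errors as bars; filled points passed the adjusted p of 0.05 and the band holds the middle 50% of all tested genes. PITHD1 is the highest called cofactor, at 0.92, and TAPBP the lowest called gene of all lists, at -1.06.

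The plot of partner genes shows called genes on both sides of 0 in 3 of the 4 lists. These lists gave 8 of 19, 6 of 11, 1 of 6 and 4 of 12 genes called, against 35.9% of all genes.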

How the data were processed

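RNA-seq of PANC-1 cells was used, 3 si-NC and 3 si-METTL16 samples, grouped by title. The authors deposited raw gene counts and FPKM values, which are the counts scaled by gene length and library total. The submitters' processing notes name HISAT2 2.0.4, StringTie 1.3.0 and GRCh38; the counting program, annotation and use of strand were not given in the sources used here.

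The 48 members were found by symbol, and the members and gene lists were chosen with earlier results of these data known. Counts were scaled by TMM. Genes were filtered with filterByExpr (minimum count 10, minimum total count 15), and 15089 genes entered the quasi-likelihood fit of edgeR 4.0.16 (R 4.3.3; glmQLFit, then glmQLFTest). P-values were adjusted by Benjamini-Hochberg over all of them, with 0.05 as threshold. The common biological coefficient of variation was 16.5%. The F statistic and the fold change gave each standard error. The study names limma; a test on counts was used because raw counts were deposited, with limma as an alternative. CPM are counts divided by the TMM-scaled library total. Levels of different genes were compared by FPKM. Ratios were tested by exact permutation (scipy 1.17.1), and sums, medians and list counts carry no test.

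Values per sample were given for the catalytic subunits, activators, inhibitor, 20S chaperones, PSMD10 and other called members that moved by 0.5 or more in log2, and elsewhere for the highest and lowest member of a class. From the partner lists NFE2L1, POMP and the highest and lowest called gene were given. The remaining called members (PSMD8, PSMD12, PSMD5 and PSMA5) were added after their values were seen, as were TAP1, ERAP2, B2M, NGLY1, VCP, SEL1L and OGT.

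There were 14 alternative fits: the replicate number as a block, each of the 6 samples left out, no filter on low counts, a minimum of 10 counts per sample, size factors of DESeq2 1.42.0 in edgeR, its own Wald test, voom values in limma 3.58.1, and limma on log2(FPKM + 1) and log2(FPKM + 0.1). Stricter thresholds were an adjusted p of 0.01 and an absolute log2 fold change of 0.5. The scripts were tested on simulated data. Beside 14889 unchanged genes, 62 of 100 genes with an absolute log2 fold change of 1 and 7 of 100 with 0.5 were called there. Far fewer genes were changed there than were called in the data (35.9% of 15089). The Benjamini-Hochberg adjustment depends on that share, so these rates do not carry over to the data. A gene not called here may still have changed. Same-numbered samples of the groups had deviations that correlated by 0.0253, 0.0371 and 0.0298 across genes. The other pairs ranged from -0.0388 to 0.00827, so same-numbered samples were the most alike, though weakly. The main fit did not take the numbers as pairs, and the block was an alternative. Within groups no samples were alike within sampling noise (chi-square per degree of freedom of at least 15.9). Promoter windows came from RefSeq (GRCh38.p14), and exon overlaps from GENCODE v44, in which 8 of the 48 genes have the same start and end as in the deposited table. Some items of the partner lists are counted in their lists but not reported here.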

Additional observations from a re-analysis of the deposited data

How the results depend on the processing

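Between 7 and 10 of the 46 proteasome genes were called over the 14 alternative fits, and 6 of the 9 called genes (PSMB9, PSME1, PSMA7, PSMC2, PSMD1 and PSMD8) were called in each of them. PSMA5 was called in 6 of the 14, PSMD12 in 9 and PSMD5 in 13. Of the genes reported as not called, PSMD11 was called in 4 fits, PSMG1 in 2, and PSMA1, PSMC3, PSMD6, PSMD7 and PSME4 in 1 each, while 30 genes were called in none. At an absolute log2 fold change of 0.5, 3 proteasome genes were called, 0 higher and 3 lower, and at an adjusted p of 0.01, 1 was called higher. With a replicate block, 9 proteasome genes were called, PSMA5 was lost and PSMG1 gained (edgeR, adjusted p = 0.0482). No source used here says how the samples were numbered. Same-numbered samples correlated weakly, but more than the other pairs did. Whether the lost call reflects pairing cannot be told from these samples. Without each sample in turn, 8 to 10 were called, 2 to 3 higher and 5 to 8 lower.

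The cofactor list, with 8 genes called, had 5 with a replicate block, with no filter and with either pseudocount on FPKM, 3 at either stricter threshold, and 4 to 6 with a sample left out (4 without si-NC replicate 3, and 5 without si-NC replicate 1 or 2 or si-METTL16 replicate 2). The ubiquitin list, with 1, had 2 with the block, 0 at either stricter threshold and 0 to 1 with a sample left out. The antigen presentation list, with 4, had 2 at an adjusted p of 0.01 and 2 to 4 with a sample left out (2 without si-NC replicate 1 or 2 or si-METTL16 replicate 1); IRF1 had an adjusted p of 0.0524 (edgeR) with the block. The cause of these differences was not tested.

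Genes near 0 changed sign without a call in either direction. The log2 fold change of PSMB1 was -0.00012 with no filter, -0.019 with a pseudocount of 1 and -0.019 with one of 0.1. With a sample left out, the lowest and highest log2 fold changes were -0.065 and 0.097 for PSMA2, -0.12 and 0.067 for PSMA4, -0.031 and 0.030 for PSMB1, -0.033 and 0.050 for PSMB7, -0.059 and 0.064 for PSMC1, -0.068 and 0.053 for PSMC4, -0.038 and 0.12 for PSMD10, -0.037 and 0.017 for PSMD14, -0.11 and 0.020 for PSMD3, -0.056 and 0.14 for PSMD9, and -0.15 and 0.11 for POMP. Depth limits PSMB10, PSMB9 and PSMG4 most, with 85 to 212 counts a sample.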

Other observations

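B2M, the light chain of MHC class I and a gene of the antigen presentation list, had 540.3, 544 and 553 CPM in si-NC and 117, 525 and 105 CPM in si-METTL16. The silenced samples did not resemble each other, with replicate 2 near the controls and the other two far below, and the log2 fold change of -1.13 ± 0.59 (SE) was not called (edgeR's quasi-likelihood test, adjusted p = 0.174). In the fit without si-METTL16 replicate 2 it was -2.30 and called (edgeR, adjusted p = 0.000746). Among proteasome genes, PSMA1, PSMD7 and PSME4 also had replicate 2 as the highest silenced sample, with the other two below every control, and were called without it but not with it. PSMA1 was at 151 CPM in that replicate and at 120.2 and 106 CPM in the other two, against 136 CPM or more in each control. PSMD7 was at 93.9 CPM there, above the highest control of 88.6 CPM, and at 61.9 and 67.9 CPM in the other two. PSMC6 and PSMF1 had the same order and were called in none of the fits. PSMA6 had a like order with replicate 1 highest. It was at 94.1 CPM there and at 71.2 and 71.0 CPM in replicates 2 and 3, against 78.3 CPM or more in each control. These genes were picked after their values were seen, and the share of all tested genes with such an order was not counted. PSMB9 and PSME1 also had replicate 1 as the highest silenced sample, but in them every silenced sample lay below every control. PSMB9 lay between 5.84 and 6.16 CPM in the silenced samples, against 11.6 CPM or more in each control. PSME1 lay between 33.8 and 40.6 CPM, against 47.9 CPM or more.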
